A study of Mus musculus with 17 samples.

Results

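Among coding transcripts of mouse testis, 139 kept at most 0.2 of their wild-type ribosome footprints when Maelstrom was missing, and these transcripts are described here. They were chosen by footprints alone: a level of 20 to 1000 CPM (counts scaled to a common library total) in both wild-type footprint libraries, and a Mael-/- mean of at most 0.2 times the wild-type mean. The range held 5387 of the 18286 coding transcripts measured, so the 139 were 2.58% of it. The transcript ENSMUST00000038782 was left out by the rule. Because footprints selected the members, footprint values and the ratio of footprints to mRNA are given as a description with no test. The values of mRNA, immunoprecipitated RNA and small RNA were not used for the choice.

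Maelstrom (MAEL) is a germ cell protein that works with the piRNA pathway, and mice without it fail to silence transposons in the male germ line. After meiosis, spermatids make many mRNAs before they need the proteins, hold them in ribonucleoprotein particles and translate them as the sperm head and tail are built. A ribosome footprint is the stretch of mRNA that a ribosome shields from nuclease, so footprints over a coding sequence reflect both how much of the mRNA is present and how densely ribosomes occupy it. The study asked, among other questions, how the loss of MAEL changes the translation of mRNAs of this stage.

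All libraries came from testis of the 129SvJae strain, either wild type or Mael-/-. Ribosome footprints of 26 to 34 nt, mRNA and small RNA of 15 to 50 nt were each sequenced from 2 libraries per genotype, lettered a and b. From wild type only, RNA carried by an anti-MAEL antibody gave 2 libraries of long RNA and 2 of selected sizes (50 to 150 nt, and 15 to 50 nt), while rabbit IgG gave 1 background library of long RNA. Ages, numbers of animals and the nature of the allele are not given in the sources used here. The labels do not tell whether the libraries of a genotype are separate animals, nor whether footprints and mRNA of 1 letter share a testis, so a p-value here sets a difference against the spread among these libraries alone, and that spread may be technical.

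Footprint libraries held 5009051 and 3291588 counts in wild type and 2735792 and 1668197 in Mael-/-. The mRNA libraries held 15372210 and 6732376 counts in wild type and 5746533 and 4130509 in Mael-/-, so library b of Mael-/- was the shallowest in both assays. The files name transcripts only by Ensembl transcript identifiers, and 0 of the 139 matched the reference tables. The members therefore carry no gene names, roles or sequences here, and the levels of Mael itself and of cell type markers, which would check the genotype and tissue labels, were not analysed here.

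The members' footprints were low in both Mael-/- libraries, by choice in the mean, and lower in library b than in library a. The wild-type mean ranged from 22.6 to 674.3 CPM over members, with a median of 62.5, and the Mael-/- mean from 2.23 to 105.7 CPM with a median of 10.8. At the median the Mael-/- mean was 16.2% of the wild-type mean (interquartile range 13.3 to 18.5%), and the lowest value was 7.08%. The members thus crowded toward the threshold, which a cut of this kind favours, with a tail of deeper losses. Taken singly, Mael-/- library a stood at a median of 21.2% of the wild-type mean and library b at 10.2%, while the other 5248 transcripts of the same range stood at 104.3 and 104.2%. Library a was above library b in 132 of 139 members, at a median ratio of 2.08, compared with 54.7% of the other transcripts and a median ratio of 1.02. Between the wild-type libraries the order was the opposite, with library a above b in 7 of 139 members and a median ratio of 0.763. For the other transcripts these values were 54.9% and 1.02. In all, the members took 1.47% ± 0.282 (SD, n = 2) of wild-type and 0.241% ± 0.117 of Mael-/- footprint counts.

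Transcripts on either side of the threshold had nearly equal ratios. The transcript ENSMUST00000121438 went from 223.6 and 250.6 CPM in wild type to 70.2 and 24.6 CPM in Mael-/-, a ratio of 0.1998. Just outside, ENSMUST00000032433 went from 53.7 and 65.6 to 16.1 and 7.79 CPM, a ratio of 0.2001. The next on either side were ENSMUST00000040609 with a ratio of 0.199 and ENSMUST00000106625 with 0.2004.

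**Figure D1:**
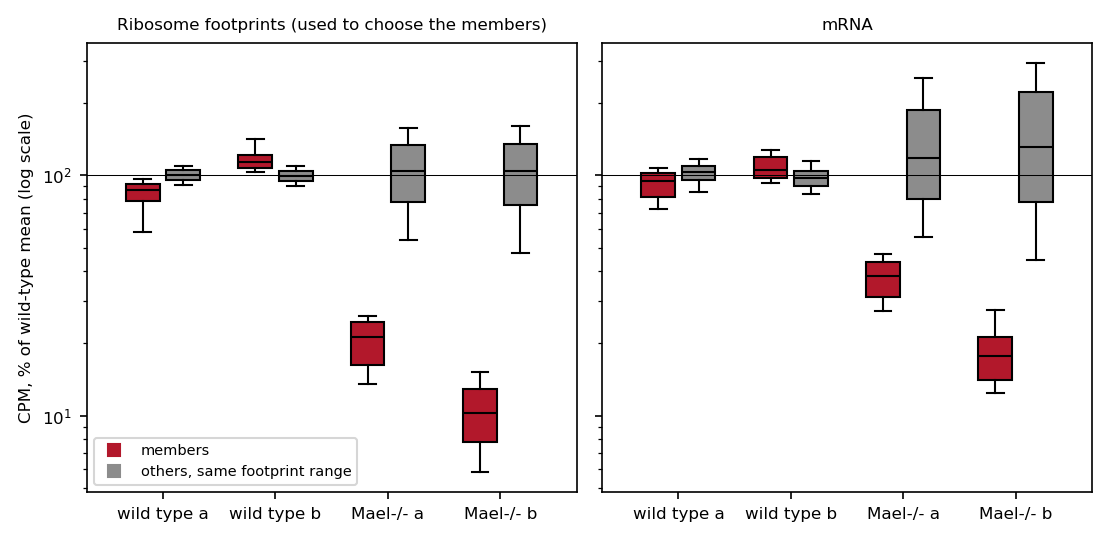
Level of the 139 members (red) and of the other transcripts in the same wild-type footprint range (grey) in each library, as a percentage of the transcript's own wild-type mean CPM on a log scale, for footprints on the left and mRNA on the right. Boxes span the interquartile range with the median as a line, whiskers run from the 10th to the 90th percentile, and values of 0 are not drawn; the red medians of Mael-/- library b (10.2 and 17.6%) lie below those of library a (21.2 and 37.7%) in both assays.

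The mRNA of nearly all members was also lower in Mael-/- testis. At the median, mRNA in Mael-/- was 28.1% of the wild-type mean (interquartile range 24.6 to 31.1%), against 127.8% for the other transcripts of the range. Both Mael-/- libraries lay below both wild-type libraries in 138 of 139 members, a pattern that 26.8% of all transcripts tested in mRNA and 25.6% of the other transcripts of the range also showed. The exception was ENSMUST00000099963, at 15.4 and 93.6 CPM in wild type and 8.35 and 25.9 CPM in Mael-/-, where the wild-type libraries lay far apart. Summed over members, the share of mRNA counts was 3.94% ± 0.106 (SD, n = 2) in wild type and 1.11% ± 0.611 in Mael-/-. In bulk testis, fewer cells of a type and less RNA per cell cannot be told apart.

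Of the 138 members with enough mRNA counts to be tested, 134 were lower and 0 higher in Mael-/- (edgeR quasi-likelihood, or QL, test with Benjamini-Hochberg adjustment over all 11181 transcripts tested, threshold 0.05). Over all transcripts tested, 17.7% were called lower and 15.2% higher, and among the other transcripts of the range 16.8 and 17.8%. The median log2 fold change of the members was -2.10 (interquartile range -2.30 to -1.96), with all 138 below 0, against 0.21 over all transcripts tested and 0.07 over the other transcripts of the range. Single members ranged from -2.74 to -1.03. Adjusted p-values of the members lay between 0.0330 and 0.128, and 0.0330 was also the smallest value of the whole comparison. The calls, of members and of all other transcripts, rested on each wild-type library. Without wild-type library a, or without b, the calls were lost over the whole comparison, not for the members alone. The medians of the members were then -2.20 and -2.03. Scaling by library totals in place of TMM moved the median of all transcripts up by 0.28 and the share of higher calls from 46.1 to 69.1%, and it left 131 members lower with a median of -1.82.

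The members that did not pass were few and also lay below 0. They were chosen for naming after their values were seen. Besides ENSMUST00000099963 (edgeR adjusted p = 0.128), ENSMUST00000113547 had a log2 fold change of -1.80 (edgeR adjusted p = 0.0528), ENSMUST00000077549 of -1.65 (0.0504) and ENSMUST00000032152 of -1.03 (0.0670). The transcript ENSMUST00000021639 was not tested, since its mRNA held only 2 and 3 counts in wild type and 0 in both Mael-/- libraries.

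As in footprints, the members differed between the Mael-/- mRNA libraries. Library a stood at a median of 37.7% of the wild-type mean and library b at 17.6%, and library a was above b in 125 of 139 members at a median ratio of 2.35. Among the other transcripts of the range, 51.7% were above and the median ratio was 1.01. Leaving out Mael-/- library a gave a median log2 fold change of -2.99, and leaving out library b gave -1.70. Library b was also the shallower one, and the part of depth in this difference was not tested.

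The 2 members with the most wild-type footprints differed widely in coding size. The transcript ENSMUST00000033057, of 211 codons, had footprints of 601.9 and 746.8 CPM in wild type and 129.4 and 80.9 CPM in Mael-/-. Its mRNA stood at 791.1 and 847.8 CPM in wild type against 323.8 and 139.0 CPM in Mael-/-. The wild-type libraries were close together and well above both Mael-/- libraries, and the mRNA log2 fold change was -2.11 ± 0.415 (SE; edgeR QL test, adjusted p = 0.0330). The transcript ENSMUST00000166046, of 1922 codons, had 537.8 and 696.3 CPM of footprints in wild type and 144.0 and 64.1 CPM in Mael-/-. Its mRNA was the more abundant of the pair in CPM, with 2293 and 2622 CPM in wild type against 817.7 and 467.7 CPM in Mael-/-. The groups did not overlap in either assay, and its mRNA fell by 2.22 on the log2 scale (SE 0.327; edgeR QL test, adjusted p = 0.0330).

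The lowest mRNA fold changes belonged to 2 transcripts of the same coding size, 193 codons. The transcript ENSMUST00000167094 had 12.5 and 20.2 CPM of mRNA in wild type and 4.002 and 1.69 CPM in Mael-/-, with footprints of 22.0 and 62.0 CPM against 5.85 and 2.40 CPM. Its mRNA log2 fold change was -2.74 ± 0.5001 (SE; edgeR QL test, adjusted p = 0.0330). For ENSMUST00000119649 mRNA went from 12.9 and 20.8 to 5.39 and 0.726 CPM and footprints from 25.6 and 62.3 to 6.58 and 0.599 CPM. Wild-type library b was above a, and Mael-/- library a above b, for both transcripts and both assays.

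These 2 were not separate cases. Among the members, 15 had a coding size of 193 codons and were linked, each to at least 1 other, by wild-type counts within 20%, though the ends of such a chain lie further apart. In the same way 3 more shared a size of 185 codons and 2 a size of 295 codons. No 2 members had identical counts in all 8 footprint and mRNA libraries, but reads of near-identical copies may be shared or split among them, so each of these 20 values is uncertain and the number of separate genes may be nearer to 122 than to 139. Over the group of 15, wild-type footprints spanned 22.0 to 28.5 CPM in library a and 56.8 to 74.4 CPM in library b, and Mael-/- footprints 5.85 to 6.94 and 0.599 to 2.997 CPM. Their mRNA spanned 11.9 to 20.6 and 19.0 to 30.3 CPM in wild type and 4.002 to 7.48 and 0.726 to 3.15 CPM in Mael-/-. With each like-count group counted once, 117 of 121 tested members were lower in mRNA and the median was -2.08.

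Outside the like-count groups, ENSMUST00000095080 (399 codons; picked after values were seen) had the lowest mRNA fold change. Its mRNA stood at 321.5 and 475.3 CPM in wild type and at 119.9 and 44.3 CPM in Mael-/-, and its footprints at 89.6 and 164.4 against 20.5 and 9.59 CPM. All 4 Mael-/- values were far below the wild-type values, and mRNA fell by 2.56 on the log2 scale (SE 0.501; edgeR QL test, adjusted p = 0.0330). The deepest footprint loss of all members was at ENSMUST00000107509 (253 codons; also picked after values were seen), from 28.1 and 50.7 CPM to 4.39 and 1.20 CPM. Its mRNA was not the lowest of the group, at 283.6 and 346.5 CPM in wild type and 116.2 and 46.0 CPM in Mael-/-, or 25.7% of wild type by means against 7.08% for footprints. The mRNA fold change was -2.24 ± 0.451 (SE; edgeR QL test, adjusted p = 0.0330).

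At the other end, ENSMUST00000032152 (109 codons) had the mildest mRNA difference. Its mRNA stood at 44.2 and 39.8 CPM in wild type and at 32.9 and 16.7 CPM in Mael-/-, while its footprints went from 51.3 and 50.7 to 10.6 and 7.19 CPM. The mRNA groups did not overlap, but the difference, -1.03 ± 0.361 on the log2 scale, missed the threshold (SE; edgeR QL test, adjusted p = 0.0670). The next, ENSMUST00000063006 (219 codons), had mRNA of 88.0 and 93.6 CPM in wild type against 50.8 and 20.3 CPM in Mael-/-, with a log2 fold change of -1.62 ± 0.430 (SE; edgeR QL test, adjusted p = 0.0381). Its footprints were 79.9 and 94.5 CPM in wild type and 27.8 and 5.99 CPM in Mael-/-, so the Mael-/- libraries lay further apart than the wild-type ones.

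**Figure D2:**
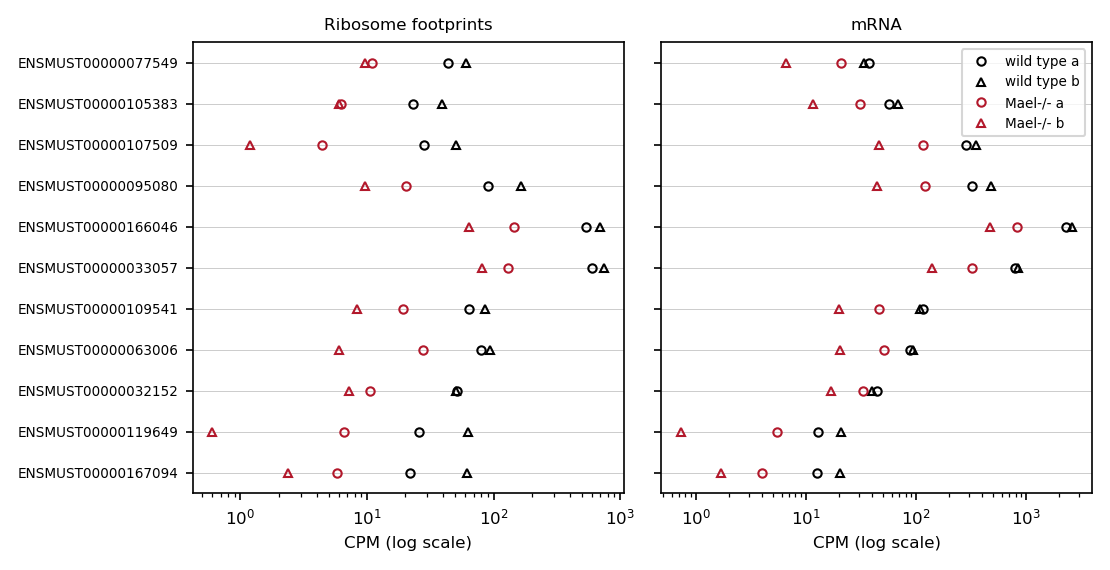
Footprint (left) and mRNA (right) levels in CPM on a log scale for 11 members named in the text, with wild type in black, Mael-/- in red, library a as circles and library b as triangles; ENSMUST00000021639, at 0 in Mael-/- mRNA, is not drawn. In every row the red symbols lie left of the black ones, and the red triangle lies left of the red circle.

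Footprints were reduced further than mRNA in nearly all members, an order that the choice by footprints favours. The footprint percentage of wild type was below the mRNA percentage in 138 of 139 members by group means, in 137 by library a and in 133 by library b. Among the other transcripts of the range, 77.1% showed this order by group means. An mRNA level of at most 0.5 of wild type was reached by 138 members and by 9.24% of the other transcripts of the range, and one of at most 0.25 by 38 members and 0.114% of the others. A level of at most 0.2, the bound used for footprints, was reached by 4 members and 0.0572% of the others. Over all 18286 coding transcripts, whose median wild-type mRNA level was only 4.33 CPM, the shares at these 3 bounds were 14.9, 7.07 and 5.97%. The bound of 0.2 applied to mRNA within the range gave 7 transcripts. The 4 shared ones were 2.88% of the members and 57.1% of that list. Across the 138 members with mRNA in both genotypes, the log2 changes in footprints and mRNA had a Pearson correlation of 0.563 and a Spearman correlation of 0.507. The points share libraries and depth, and the choice by footprints narrows one axis.

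In the fit over 8 libraries, the change in the ratio of footprints to mRNA had a median of -0.56 on the log2 scale over members (interquartile range -0.77 to -0.39), with 137 of 139 below 0. Over all 11427 transcripts fitted the median was -0.19 with 62.2% below 0, and over the other transcripts of the range -0.16 with 61.6% below 0. The size of this value depended on single libraries, most on those of Mael-/-. It was -1.33 without the Mael-/- footprints of library a, -0.18 without those of library b and -1.11 without the Mael-/- mRNA of library b. Without the Mael-/- mRNA of library a it was 0.22, the opposite direction. Leaving out wild-type footprints of library a or b gave -0.77 and -0.33, and leaving out wild-type mRNA of a or b gave -0.53 and -0.69. With Mael-/- libraries paired by letter, each over the mean of both wild-type libraries, the median log2 ratio changes in CPM were -0.89 for a and -0.83 for b. Both values share the same wild-type means, so they do not show the spread between wild-type libraries. CPM rests on library totals. The fit scaled that way had a median of -0.80 over members and -0.45 over all transcripts fitted.

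The members had fewer footprints per mRNA already in wild type. Wild-type footprint CPM per mRNA CPM had a median of 0.590 over members and 1.13 over the other transcripts of the range. In Mael-/- the medians were 0.320 and 0.843. Members ranged widely around their median in wild type, from 0.157 at the 10th to 2.03 at the 90th percentile. Per kb of coding sequence, the median wild-type mRNA level was 101.9 CPM for members and 51.9 CPM for the others, and the median footprint level 68.9 and 53.7 CPM. Across members, log2 wild-type footprint and mRNA levels had a Pearson correlation of 0.598 and a Spearman correlation of 0.594 (n = 139, points sharing libraries and transcript length).

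The lists overlapped, since the members' upper quartile of 1.18 lay above the others' median. The highest ratio by far was that of 1 member. The transcript ENSMUST00000021639, of 427 codons, had footprints of 95.2 and 78.7 CPM in wild type and 18.3 and 8.99 CPM in Mael-/-, but hardly any mRNA. Its wild-type footprint CPM was 302 times its mRNA CPM. With 2 and 3 mRNA counts behind the denominator, the ratio is imprecise.

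**Figure D3:**
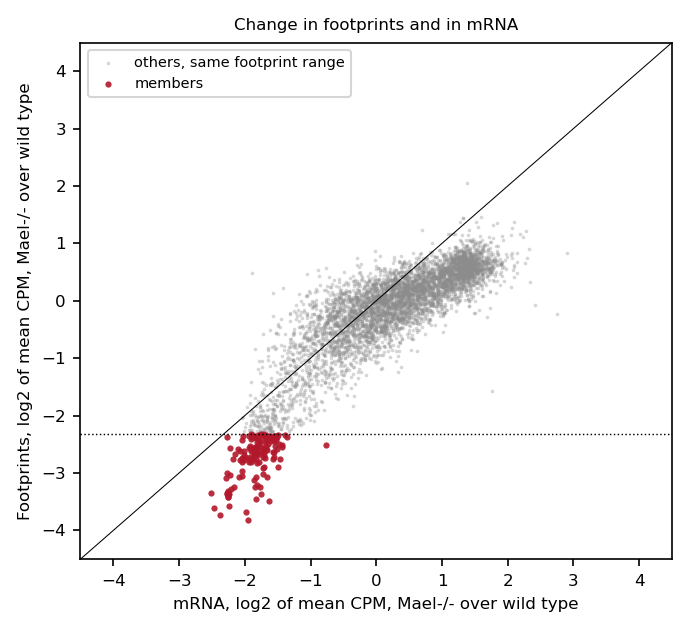
Log2 ratio of Mael-/- to wild-type mean CPM in footprints (vertical) against that in mRNA (horizontal) for members (red) and other transcripts of the same footprint range (grey), 1 point per transcript with both ratios defined. The dotted line is the footprint threshold of the choice, the solid line marks equal change, and nearly all red points lie below it.

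The members' coding sequences were a little shorter than those of the others, and their whole transcripts shorter still. The median coding size was 363 codons for members, from 37 to 4073, and 422 for the other transcripts of the range. The median whole size was 1615 nt against 2568.5 nt, so coding sequence made up a median of 70.1% of a member and 57.0% of another transcript. Counting each like-count group once was not applied to these medians, and the 15 transcripts of 193 codons weigh on them.

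No member passed the test of anti-MAEL against IgG. All 139 were tested, and 0 were called higher and 0 lower (edgeR quasi-likelihood over 12431 coding transcripts). Over all coding transcripts tested, 0.869% were called higher and 0.0% lower. DESeq2 made 0 calls of members in either direction. At an unadjusted p under 0.05 in the edgeR test, 2 members were higher and 1 lower, against 605 and 118 of all 12431 transcripts. The median log2 fold change of the members was -0.10 (interquartile range -0.27 to 0.09), against 0.01 over all transcripts tested and -0.07 over the other transcripts of the range. With 1 IgG library, assumed in the fit to vary like the other groups, these data hold no measure of how the background varies, and a missed threshold does not show that the levels are equal.

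In CPM both anti-MAEL libraries were above IgG for 8 of 139 members, compared with 14.7% of the transcripts tested, and both were below it for 98 members, compared with 51.6%. Among the other transcripts of the range these shares were 7.15 and 63.6%. The anti-MAEL libraries differed from each other: library a stood at a median of 0.558 times IgG over members and library b at 0.901, while the other transcripts of the range had 0.579 and 0.915. Anti-MAEL and IgG levels of the members were closely tied, with a Pearson correlation of 0.974 and a Spearman correlation of 0.972 on the log2 scale (n = 139; the points share libraries and transcript length).

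Both immunoprecipitates held more RNA of the members than of the other transcripts of the range, per kb of transcript. The IgG level had a median of 35.9 CPM per kb over members against 7.01 over the other transcripts of the range, and the anti-MAEL mean 29.2 against 5.48 CPM per kb. In wild-type mRNA the medians were 101.9 and 51.9 CPM per kb of coding sequence. The members took 1.11% ± 0.376 (SD, n = 2) of anti-MAEL and 1.497% of IgG counts. Of wild-type mRNA counts, which appear to cover coding sequence alone, they took 3.94%. The difference between members and others was thus present with the control antibody as well.

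**Figure D4:**
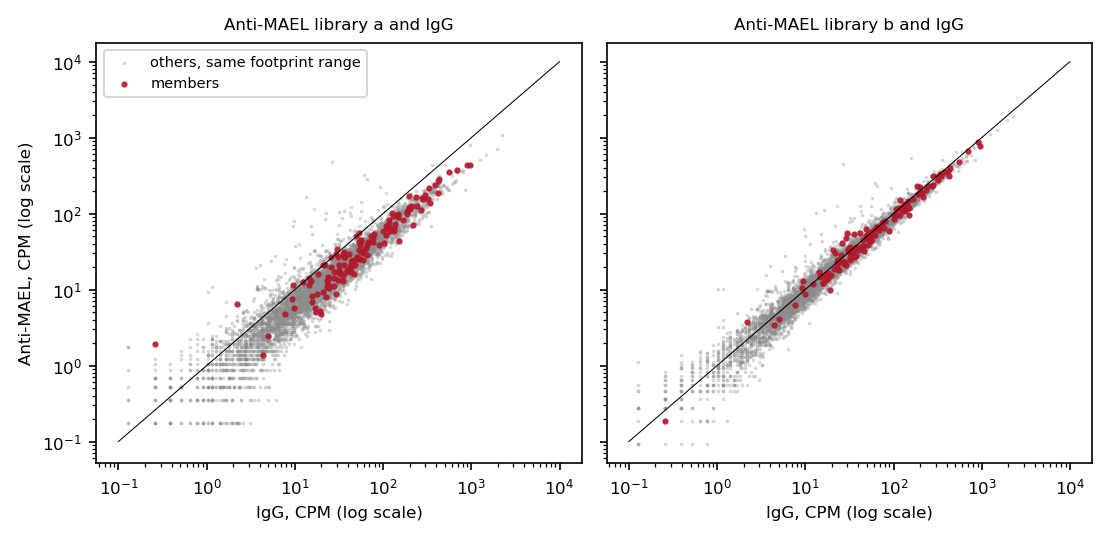
Anti-MAEL level against IgG level in CPM, both on log scales, for anti-MAEL library a (left) and b (right), with members in red and other transcripts of the same footprint range in grey; transcripts at 0 on either axis are not drawn. Red points run along the grey cloud, mostly below the line of equal level in library a and close to it in library b.

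The 2 members with the highest anti-MAEL over IgG fold changes had few counts. The transcript ENSMUST00000021639, described above for its lack of mRNA, had 11 and 2 anti-MAEL counts against 2 IgG counts, and its log2 fold change was 2.16 ± 1.73 (SE; edgeR QL test, adjusted p = 0.998). The transcript ENSMUST00000109541 (317 codons) had 37 and 41 counts (6.44 and 3.77 CPM) in the anti-MAEL libraries against 17 (2.18 CPM) for IgG, and its log2 fold change was 1.58 ± 0.607 (SE; edgeR QL test, adjusted p = 0.639). Its mRNA was 116.4 and 109.0 CPM in wild type and 46.1 and 20.1 CPM in Mael-/-, an ordinary member in that respect. The smallest p-value among members belonged to ENSMUST00000052380 (172 codons; named after its value was seen), with 195 and 609 anti-MAEL counts (33.9 and 56.1 CPM) against 231 IgG counts (29.7 CPM). Both anti-MAEL values were above IgG, and the log2 fold change of 0.93 did not hold after adjustment (SE 0.291; edgeR QL test, adjusted p = 0.387). The 2 members with the most footprints were present with both antibodies. For ENSMUST00000033057 the anti-MAEL values were 121.3 and 226.5 CPM and the IgG value 199.0 CPM, and for ENSMUST00000166046 189.1 and 309.0 CPM against 420.4 CPM. For the first the IgG value lay between the anti-MAEL values, and for the second it lay above both.

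The size-selected anti-MAEL libraries have no replicate and no IgG library of their size, so they give values only. At 50 to 150 nt the members took 0.0769% of counts, with a median of 1.74 CPM per kb of transcript against 0.379 for the other transcripts of the range. At 15 to 50 nt they took 0.0348% of counts, and the medians were 0.157 and 0.161 CPM per kb. A pair of members stood far above the rest at 15 to 50 nt, and both were named after this was seen. The transcript ENSMUST00000105383 (480 codons) held 145.8 CPM and ENSMUST00000077549 (363 codons) 80.7 CPM, against a median of 0.272 CPM over members. In wild-type small RNA of the same size, ENSMUST00000105383 had 0 and 0.386 CPM and ENSMUST00000077549 1.76 and 1.29 CPM. With long RNA they stood at 28.2 and 66.6 CPM (IgG 65.1) and at 11.5 and 12.8 CPM (IgG 9.50), and their footprints were 5.13-fold and 5.07-fold lower in Mael-/-, near the threshold.

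Small RNA from the members was a small part of all small RNA in both genotypes. Their share of counts was 0.0184% ± 0.0105 (SD, n = 2) for wild type and 0.0184% ± 0.00948 for Mael-/-. Per kb of transcript, the wild-type median was 0.359 CPM for members and 0.295 for the other transcripts of the range. In Mael-/- these medians were 0.344 and 0.928 CPM. In at least 1 of the 4 libraries, 31 of 139 members had no count, compared with 13.8% of the others. In CPM the Mael-/- mean was a median of 1.09 times the wild-type mean over the 138 members with a wild-type value, whereas it was 3.20 times over the other transcripts of the range. The Mael-/- mean was below the wild-type mean in 60 of 139 members and in 7.05% of the others. Small RNA of 15 to 50 nt can hold fragments of mRNA as well as piRNAs, and which these were was not tested.

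In the small RNA fit 74 members passed the filter on low counts and 65 were not tested, so the counts describe only the more abundant ones. With TMM scaling the 74 had a median log2 fold change of -1.14, all below 0. The other transcripts of the range that were tested had a median of 0.20, with 42.7% below 0. Over all features tested, 45.4% lay below 0. The TMM values describe only transcripts that passed the filter, on another scale than the CPM ratios above. With library totals the interquartile range of the 74 was -0.49 to 0.34, on both sides of 0. Of the 74, 6 were called lower and 0 higher (edgeR quasi-likelihood, adjusted over 9906 features), where 3.49% of all features were called lower and 3.82% higher. Scaling weighs heavily here: library totals in place of TMM moved the median of all features up by 1.27 on the log2 scale and the share of higher calls from 52.2 to 94.6%, and left 1 of the members, ENSMUST00000032152, lower. This transcript was the member with the mildest mRNA difference. Its small RNA stood at 4.77 and 6.04 CPM in wild type and at 1.33 and 1.45 CPM in Mael-/-, with no overlap. With TMM scaling it fell by 3.08 on the log2 scale (SE 0.471, edgeR QL test, adjusted p = 0.00665). With library totals the log2 fold change was -1.96, close to the threshold (edgeR QL test, adjusted p = 0.0458). The transcripts ENSMUST00000171497, ENSMUST00000111149, ENSMUST00000024650, ENSMUST00000093100 and ENSMUST00000030826 were the others, named after their values were seen. For 3 of the 6 the groups overlapped in CPM and the call was lost with library totals. The transcript ENSMUST00000093100 had 7.90 and 11.96 CPM in wild type against 6.72 and 9.11 in Mael-/-, ENSMUST00000024650 had 3.62 and 5.91 against 1.83 and 4.35, and ENSMUST00000030826 had 6.75 and 9.26 against 5.16 and 8.49. The transcript ENSMUST00000171497 rested on 40 and 6 counts in wild type against 1 and 1 in Mael-/-.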

How the data were processed

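Libraries were grouped by the sample labels. The authors deposited raw counts of reads per feature, with no normalization, and a size for each feature. Genome build mm9 and the tools TopHat2 2.0.7, Bowtie2 2.0.6 and CASAVA 1.8 stand in the submitters' processing notes, without their roles. How multiply matching reads were assigned and whether counting used strand are not given in the sources used here. Values of overlapping, antisense and near-identical transcripts are therefore uncertain. The long-RNA kit keeps no strand, per the labels' protocols. Footprint and mRNA tables appear to count coding sequence and the other tables whole transcripts, judged from the sizes. Read as codons, 0 of 18286 coding sizes exceed the whole transcript, while 11 lie below 0.

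CPM was computed on library totals, counting several entries of a piRNA locus once, by the entry with the most counts, and no pseudocount was added. A chi-square comparison within each group gave at least 3.30 per degree of freedom, more than counting alone gives. Every library was counted as its own replicate, though the comparison cannot tell whether they are separate animals. The test was that of edgeR 4.0.16 under R 4.3.3 (quasi-likelihood test, TMM scaling, filterByExpr filter, Benjamini-Hochberg adjustment over each whole table, 0.05): mRNA and small RNA by genotype in 4 libraries each, and anti-MAEL against IgG over coding transcripts in 5 libraries, with wild-type mRNA sharing the estimate of spread. The footprint to mRNA ratio was fitted as an interaction over 8 libraries and not tested. Alternatives were library totals, size factors, no filter, DESeq2 1.42.0, a replicate block, repeated members counted once and each library left out. The procedures were tested on simulated data. Python 3.11.15, numpy 2.4.6, pandas 2.3.3, scipy 1.17.1 and matplotlib 3.10.9 did the rest.

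The members, lists and tests were chosen with earlier results of these data known. With no gene symbols, the rule for named transcripts took the 2 members with the lowest and the 2 with the highest mRNA fold change at 5 CPM or more in wild type, the 2 with the highest anti-MAEL over IgG fold change, the 2 with the most wild-type footprints and the 2 on each side of the threshold; names outside it are marked as picked after values were seen. The intended lists of spermatid genes and of markers of other cell types could not be applied. Reads carry no molecular identifiers, so counts are not independent molecules.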

Additional observations from a re-analysis of the deposited data

How the results depend on the processing

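The number of members lower in mRNA was 131 with library totals and with size factors and 138 without the filter, with DESeq2 and with the replicate block, beside 134 as reported; leaving out 1 library gave 0 to 135, with 0 without either wild-type library and 129 without Mael-/- library b. Their median stayed below 0 in all of these, and from -2.99 to -1.70 when 1 library was left out. Over all transcripts in each mRNA fit, 1979 were lower as reported, 1470 with library totals and 1877 with size factors. Without the filter 2515 were lower, with DESeq2 2308 and with the replicate block 2654. The settings with 138 members lower thus also called more of all transcripts lower than the reported fit did. In anti-MAEL against IgG, 0 members were called under every alternative run, which left out each anti-MAEL and wild-type mRNA library but not IgG, without which there is no contrast. In small RNA the 6 members called lower became 1 with library totals, 31 with the replicate block and 3 (without wild-type library b) to 24 (without Mael-/- library b) when 1 library was left out. Calls over all features moved too: 346 of 9906 were lower as reported, 139 with library totals, 1754 with the block, 204 without wild-type library b and 672 without Mael-/- library b. The median ratio change of members, -0.56 as reported, was -0.80 with library totals and -0.39 with size factors. It was -0.65 without the filter and -0.40 with DESeq2. Library totals also moved the median over all transcripts fitted, from -0.19 to -0.45. When 1 library was left out, the members' median ran from -1.33 to 0.22. The last, without Mael-/- mRNA library a, had the opposite direction. The cause was not tested.

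Libraries sharing a letter were set against each other: their deviations correlated at 0.156 in mRNA, 0.506 in small RNA and -0.138 in footprints. With 2 letters and no label tying them, the block is given as an alternative only, and the ratio median was -0.56 with it and -0.57 with the letters crossed, chosen after the data were seen. Depth limits the deepest losses: the median member had 11 footprint counts in Mael-/- library b.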
